A study of Mus musculus with 14 samples.

Results

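The cytosolic ribosomal protein genes encode the proteins of the small and large subunits of the ribosome that works in the cytosol. Members were chosen by gene symbol: every Rps or Rpl gene with a numbered symbol, with or without a final a, x or l, together with Rplp0, Rplp1, Rplp2, Rpsa and Rpl36al, and without genes marked as pseudogenes. This gave 82 genes of 45706 in the tables, 32 of the small subunit and 50 of the large subunit. No symbol had more than 1 row.

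The libraries came from mice in which Prmt5, an enzyme that places symmetric dimethyl marks on arginines of histones, splicing proteins and other targets, was floxed in all groups. Fetal liver cells were sorted at embryonic stage E14.5 into Ter119neg and Ter119pos fractions. Ter119 is a surface marker of maturing red cell precursors. Knockout (KO) embryos were PRMT5fl/fl with Vav-cre, whose promoter drives Cre in blood-forming cells, and control (WT) embryos were PRMT5fl/fl without Cre. Each of these 4 groups had 2 libraries. KO mice 1 and 2 gave both fractions, WT mice 3 and 4 gave Ter119neg, and WT mice 5 and 4 gave Ter119pos. The LK cells, a fraction rich in progenitors, came from Mx1-cre PRMT5fl/fl mice (KO) and PRMT5fl/fl mice (WT), 3 libraries each, taken 7 days after poly(I:C). Poly(I:C) turns on the interferon-responsive Mx1 promoter, and the design text describes the injections for both genotypes. Neither the age of these mice nor the animal behind each lettered LK library (A, B and C) is stated, so p-values there measure only the spread between libraries, which may be technical. Litters are not stated either.

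A ribosome carries a single copy of nearly every one of these proteins, and their mRNAs are among the most abundant in growing cells. Most of these mRNAs begin with a cytosine followed by a run of pyrimidines, the terminal oligopyrimidine motif, through which mTOR and Larp1 control their translation and stability. Red cell precursors make very large amounts of globin and later lose their ribosomes, and loss of a copy of several ribosomal protein genes causes Diamond-Blackfan anemia, a failure of red cell production.

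Of the 82 members, 61 had an entry among the RefSeq promoter windows (GRCm38.p6, 250 bases before to 50 after the listed start). Stretches around the start are shown for the 4 members with the largest and the 4 with the smallest rise in Ter119pos KO cells among those with an entry, since that rise is the main result below. The stretches cover 30 bases before the start and 15 from it on, with runs of at least 8 pyrimidines in capitals. The first 4 are from Rpl39 (chrX:37085208-37085252, minus strand), Rps27 (chr3:90213634-90213678, minus), Rps7 (chr12:28635939-28635983, minus) and Rpl13a (chr7:45128731-45128775, minus). The last 4 are from Rpl36al (chr12:69184053-69184097, minus), Rpl4 (chr9:64173357-64173401, plus), Rpl23 (chr11:97782425-97782469, minus) and Rpl7a (chr2:26910777-26910821, plus).
Rpl39: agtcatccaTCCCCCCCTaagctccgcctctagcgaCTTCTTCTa
Rps27: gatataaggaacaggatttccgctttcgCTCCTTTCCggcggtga
Rps7: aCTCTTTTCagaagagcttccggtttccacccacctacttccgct
Rpl13a: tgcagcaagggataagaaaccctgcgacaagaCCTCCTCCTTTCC
Rpl36al: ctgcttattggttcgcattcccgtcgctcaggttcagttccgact
Rpl4: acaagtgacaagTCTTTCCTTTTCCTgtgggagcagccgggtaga
Rpl23: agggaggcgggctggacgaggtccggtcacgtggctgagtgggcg
Rpl7a: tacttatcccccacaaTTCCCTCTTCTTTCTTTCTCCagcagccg

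A pyrimidine run of at least 8 bases lay within 30 bases of the listed start, on the strand of the gene, in 34 of 61 members (55.7%), against 25.8% of 27025 genes with a window. The ETS core CCGGAAG, searched on both strands of the whole window, was in 25 members (41.0%, against 9.93% of genes). The GC box GGGCGG was in 37 (60.7%, against 38.2%), the YY1 element AAGATGGCG in 3 (4.92%, against 1.64%), and TATAAA, on the strand of the gene, in 5 (8.20%, against 9.77%). The motifs may overlap in a window. Each window is set by an annotated start, so a run at another start is missed. A run lying wholly before the listed start was also counted, as in the stretches of Rps7 and Rpl4. The count is therefore not a count of terminal oligopyrimidine motifs.

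The share of each library's counts that fell on the members differed most in Ter119pos cells. Members took 3.82% and 4.01% of all gene counts in Ter119pos KO libraries A and B, and 1.69% and 2.08% in the WT libraries. Both KO libraries lay above both WT libraries. In Ter119neg the share was 5.01% and 5.07% in KO and 5.86% and 4.75% in WT, so the KO libraries lay between the WT libraries. In LK it was 12.3%, 9.08% and 8.65% in KO and 11%, 11.2% and 7.00% in WT, with the groups overlapping. LK and fetal libraries were made with different RNA kits, so their shares are not compared with each other. The exact two-sided permutation p was 0.33 for Ter119pos, the smallest that 2 against 2 allows, 1.00 for Ter119neg, and 1.00 for LK, where 3 against 3 allows 0.1.

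These shares depend on what else was counted. Small structural RNAs (misc_RNA, ribozyme, snRNA and snoRNA genes) took 40.1% and 38.9% of counts in Ter119pos KO and 7.13% and 7.26% in WT, and 18.6% to 35.4% in the Ter119neg libraries. The signal recognition particle RNA genes Rn7s1 and Rn7s2 alone took 25.9% and 25.3% in Ter119pos KO and 4.28% and 4.63% in WT. Globin genes took 16.4% and 18.3% in Ter119pos KO and 25.1% and 24.6% in WT. As a share of protein-coding counts without globin, the members took 13.2% and 15.3% in Ter119pos KO against 3.32% and 4.06% in WT, a ratio of means of 3.86. On that base Ter119neg KO stood at 9.94% and 11.5% and Ter119neg WT at 9.22% and 8.68%. The part of the structural RNAs in the results was not tested beyond the changes of scale given with each comparison.

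**Figure D1:**
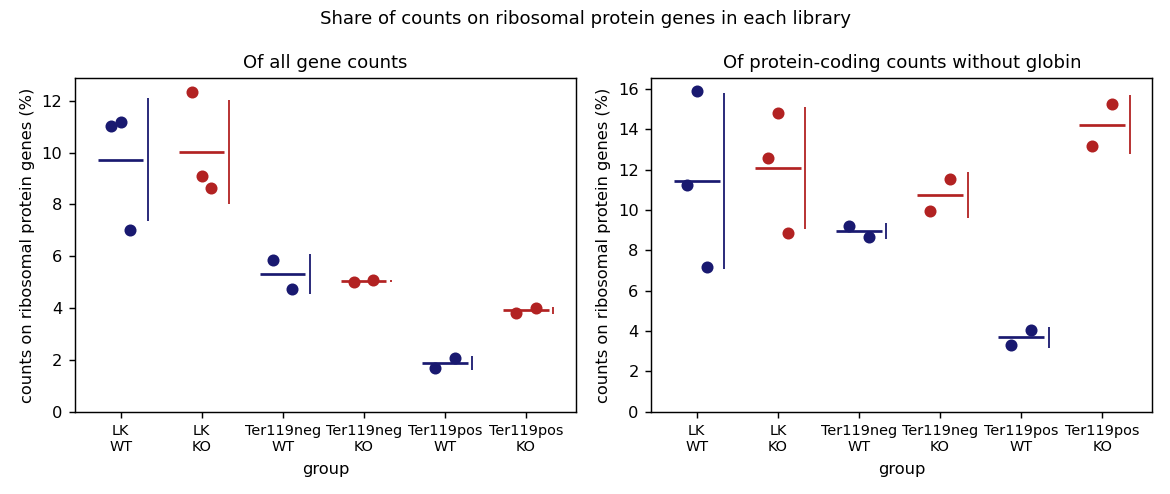
Percent of counts on the 82 ribosomal protein genes in each library (points), by group, of all gene counts (left) and of protein-coding counts without globin (right). Horizontal lines are group means and vertical lines ± 1 SD (n = 3 for LK, n = 2 otherwise). LK and fetal libraries were made with different RNA kits. The Ter119pos WT libraries are lowest on both scales, at 1.69% and 2.08% of all counts, and the Ter119pos KO libraries lie above them.

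Prmt5 itself was lower in KO in each cell type. It stood at 3.64 and 4.92 normalised CPM (counts scaled to library size) in Ter119pos KO against 13.8 and 17.7 in WT, at 4.51 and 4.26 in Ter119neg KO against 52.3 and 51.8, and at 10.5 to 12.3 in LK KO against 63.1 to 110.2. Total counts ran from 19514544 to 30976936 per library. The progenitor receptor gene Kit stood at 209 to 388 CPM in LK, 96.4 to 110.1 in Ter119neg and 7.28 to 14 in Ter119pos libraries. The LK and fetal values were normalised separately and come from different RNA kits. The red cell membrane gene Slc4a1 stood at 4263 to 14114 CPM in Ter119pos and at 20.5 to 27.5 in Ter119neg libraries.

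Deletion of Prmt5 was accompanied by a rise of every tested ribosomal protein gene in Ter119pos cells. All 80 tested members were higher in KO at an adjusted p under 0.05 (edgeR quasi-likelihood test, Benjamini-Hochberg over all genes), where 24.8% of the 15566 tested genes were higher. The median log2 fold change of the members was 2.01 (4.02-fold), against -0.04 over all genes. Values ran from 1.05 for Rpl7 to 3.34 for Rps14. In each of the 80, both KO libraries stood above both WT libraries. The share of all genes so separated was not counted, so that separation is not read as a result about the members. The 2 untested members were Rpl3l and Rpl10l, neither of which had a count in a Ter119pos library. The libraries are bulk RNA, in which a change in the number of cells of a type and a change in RNA per cell cannot be told apart.

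Scaling changed the size of this rise. With libraries scaled to their total counts, 75 of 80 members were higher (8.72% of genes), with a median of 1.10, and the median of all genes moved to -0.93. Taken relative to the all-gene median, the members stood at 2.05 under the main scaling and at 2.03 under total counts. A change of scale moves all genes by nearly the same amount, so the closeness of these values was fixed in advance. The members not called under total counts were Rpl7, Rpl3, Rpl36al, Rpl21 and Rpl39l, at 0.14 to 1.76, all above 0. Without KO replicate B the median was 1.79, and without KO replicate A it was 2.19.

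**Figure D2:**
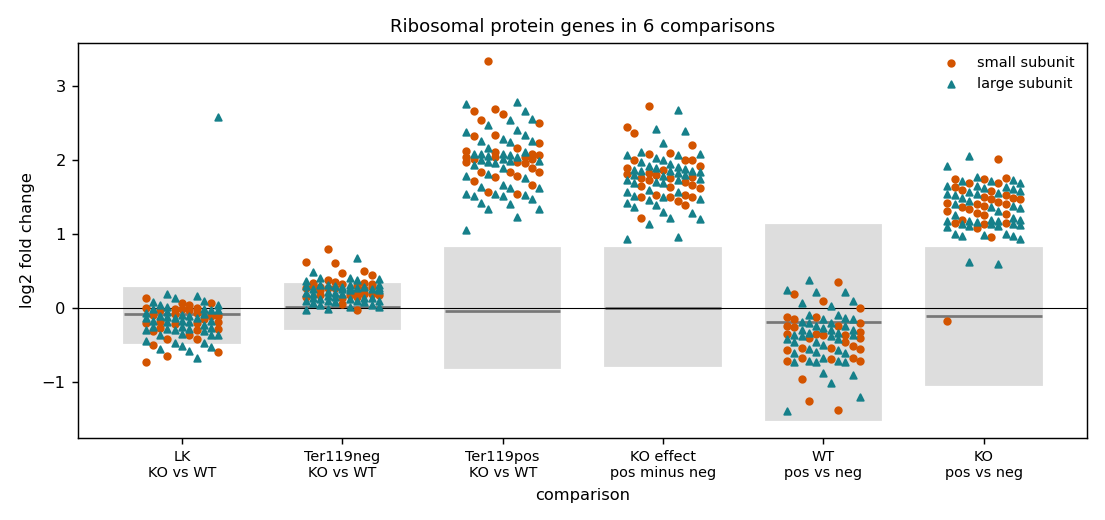
Log2 fold changes of the tested ribosomal protein genes (points, small subunit round, large subunit triangular) in the 6 comparisons. Grey boxes span the middle 50% of all tested genes and grey lines their medians. In Ter119pos KO against WT all 80 points lie above 1, while in Ter119neg and LK most lie within the grey box. The single high point in LK is Rpl3l at 2.58.

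Within the small subunit, all 32 members rose in Ter119pos KO, with a median of 2.03. Rps14, a protein of the small subunit platform whose loss on a deleted chromosome arm underlies the anemia of the 5q- syndrome in people, had the largest change of all members. It stood at 2179 and 2277 CPM in KO and at 202 and 238 in WT. The fold was 10.1 (log2 3.34, SE 0.172, adjusted p = 5.89e-08), which is 1.33 above the members' median. Rps19, the gene most often mutated in Diamond-Blackfan anemia, stood at 1007 and 1320.1 CPM in KO and at 269 and 299 in WT (log2 2.03). Its change was close to the members' median.

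Other small subunit genes with a fixed place in the list varied in the same range. Rps10 stood at 888 and 1057 CPM in KO and at 171 and 175 in WT (log2 2.49). Rps2, a protein at the mRNA entry site, stood at 4298 and 4631 in KO and at 1087 and 1213 in WT (log2 1.96). Rpsa, which also serves as a laminin receptor precursor, stood at 3948 and 4697 in KO and at 1159 and 1263 in WT (log2 1.84). Rps2 and Rpsa were already among the highest members in WT and remained so in KO. The small subunit share of the members' own counts was 44.1% and 44.3% in KO and 41.3% and 41.1% in WT (exact permutation p = 0.33, the smallest possible).

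Of the large subunit, all 48 tested members rose, with a median of 1.98, and the smallest changes of all members were found here. Rpl39, a very short protein of the exit tunnel, stood at 1044 and 1375 CPM in KO and at 159 and 192 in WT (log2 2.78, SE 0.178, adjusted p = 2.12e-07). Rpl36 stood at 456 and 570.2 CPM in KO and at 77.2 and 74.6 in WT (log2 2.76, SE 0.167, adjusted p = 1.58e-07). At the other end, Rpl7 stood at 931 and 1239.6 CPM in KO and at 492 and 558 in WT (log2 1.05, SE 0.172, adjusted p = 0.000225). Rpl3, a core protein near the peptidyl transferase center, stood at 1301 and 1518 in KO and at 564 and 640.5 in WT (log2 1.23, SE 0.161). Rpl7 (chr1:16101295-16104662, minus strand, GRCm38) and Rpl3 were thus the members with the smallest rise, 2.07-fold and 2.34-fold, and scaled to total counts neither passed the test.

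The stalk proteins Rplp0, Rplp1 and Rplp2 recruit translation factors to the large subunit, and their log2 fold changes ran from 1.53 to 2.56. Rplp0, the base of the stalk, stood at 3134 and 3769 CPM in KO and at 1151 and 1233 in WT (log2 1.53, SE 0.169). Rplp1 stood at 1969 and 2467 in KO and at 373 and 381 in WT (log2 2.56, SE 0.206). Rplp2 stood at 744 and 862 in KO and at 204 and 195 in WT (log2 2.01, SE 0.169). The differences among the stalk genes were not tested. Rpl5 and Rpl11 form, with 5S rRNA, the particle that binds Mdm2 and so ties ribosome assembly to p53. Rpl5 stood at 946 and 1185 CPM in KO and at 303 and 370.0 in WT (log2 1.66). Rpl11 stood at 981 and 1058 in KO and at 202 and 228 in WT (log2 2.25). All 19 members known as Diamond-Blackfan anemia genes rose, with a median of 2.08 and a range of 1.57 to 2.61.

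**Figure D3:**
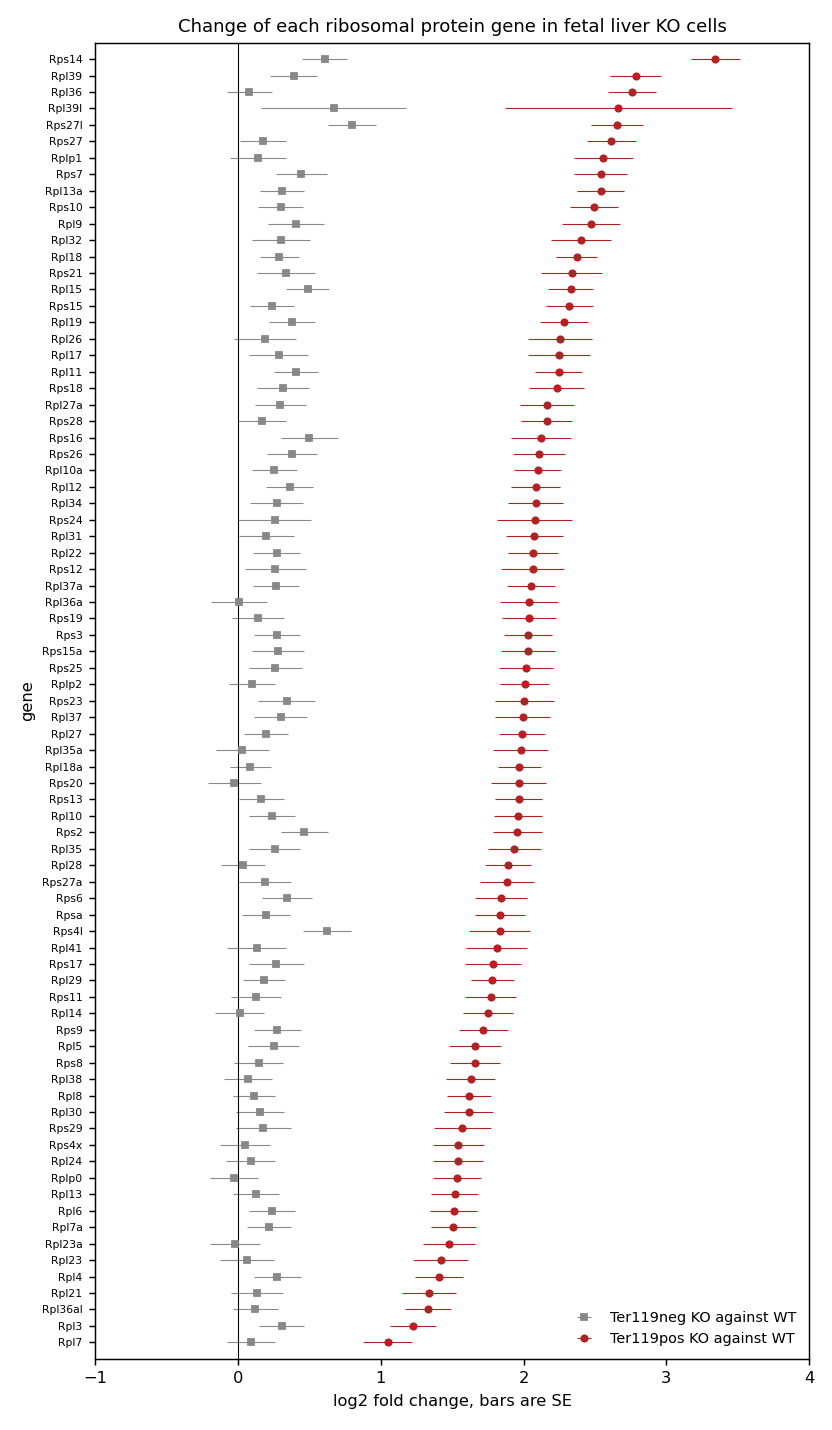
Log2 fold change with its SE for 79 of the 80 tested members in Ter119pos KO against WT (red circles) and Ter119neg KO against WT (grey squares), ordered by the Ter119pos value. Every red point lies above 1, from Rpl7 at 1.05 to Rps14 at 3.34, and the grey points lie between -0.03 and 0.80.

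The rise varied among the members, and its size was set beside other features. Across the 78 tested members with an annotated coding length, without the scarce Rpl39l, the Spearman rho of the Ter119pos log2 fold change was -0.32 with coding length and -0.37 with the level in Ter119pos WT. These are correlations across genes that share libraries, and the second shares its WT values with the fold change. Removing the trend with transcript length over all genes lowered the members' median to 1.56, against -0.05 over all genes. In that fit 80 of 80 were called. The share of all genes called there was not counted, so that count is not read as a result about the members. Members with a pyrimidine run near the listed start had a median of 2.08 (34 tested) and those without one 2.00 (25 tested). For the ETS core the medians were 2.11 (25 tested) and 2.02 (34 tested). These values are descriptions, with the ranges of the groups overlapping.

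**Figure D4:**
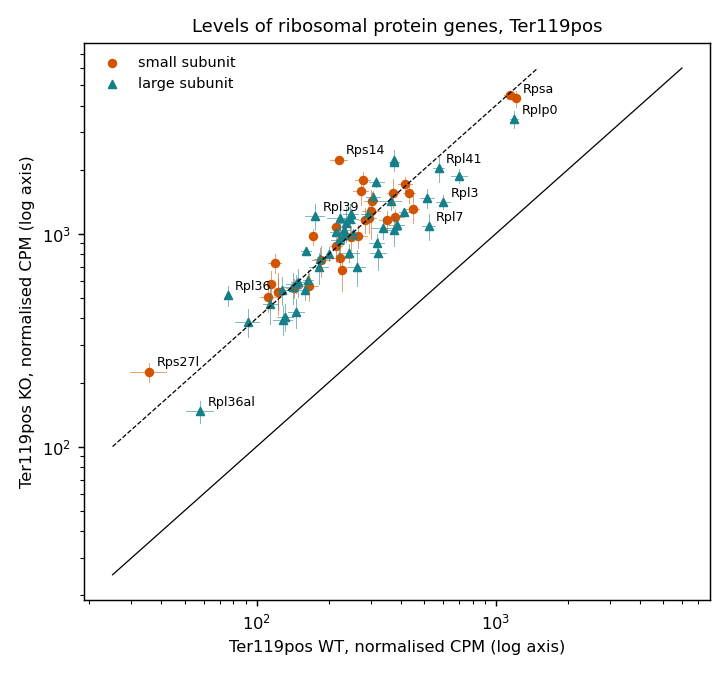
Mean normalised CPM of the members above 10 CPM in Ter119pos WT (horizontal, log axis) and Ter119pos KO (vertical, log axis), with thin lines from the lower to the higher of 2 libraries. The solid line marks equal levels and the dashed line a 4-fold rise. All points lie above the solid line, with Rps14 farthest above the dashed line and Rpl7 and Rpl3 among those farthest below it.

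Levels between genes were compared as CPM per kilobase of coding sequence over the same 78 members. In all 6 groups Rpl41, the shortest member, came first, at 7695 ± 541 in Ter119pos WT and 26997 ± 5105 in Ter119pos KO (SD, n = 2). Its coding sequence of 75 bases inflates this value. The same applies to other short members, such as Rpl39 (153 coding bases, mRNA of 612) and Rps29 (168 coding bases, mRNA of 390). Their ranks depend on the use of coding length, and ranks per kilobase of mRNA were not computed. In Ter119pos WT the next were Rpsa (1368 ± 82.6), Rps29 (1351 ± 43.5), Rps2 (1308 ± 102) and Rplp0 (1253 ± 60.7), which did not differ beyond their spread from one neighbor to the next. In Ter119pos KO the order after Rpl41 was Rpl39 (7906 ± 1531), Rplp1 (6486 ± 1031), Rps2 (5079 ± 268) and Rps14 (4919 ± 152), where Rpl39 and Rplp1, and Rps2 and Rps14, were within their spread of each other. The lowest 2 in Ter119pos WT were Rps27l (141 ± 33.7) and Rpl36al (183 ± 33.5), both second copies of a ribosomal protein. Rpl36al and Rps27l were also lowest in Ter119pos KO (460.5 ± 79.3 and 892 ± 127), and Rpl36al in Ter119neg KO (230.1 ± 27.3) and WT (212 ± 20.4). In LK the B libraries set a wide spread, with Rplp1, next after Rpl41, at 7369 ± 5783 in KO and 11090.2 ± 12631 in WT (SD, n = 3), and with Rpl36al (703 ± 73.5) lowest in KO and Rpl5 (722 ± 112) lowest in WT. Across 78 members the order in Ter119pos KO and WT had a Spearman rho of 0.719, while it was 0.972 between Ter119neg KO and WT and 0.953 between LK KO and WT. The Ter119neg and Ter119pos WT orders had a rho of 0.768, and the LK and Ter119neg WT orders 0.552. LK and fetal libraries differ in tissue and in RNA kit, so the last value does not compare cell types alone.

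Other genes of translation were read from the same Ter119pos comparison, where 24.8% of all genes were higher and 29.3% lower. Of 7 ribosomal protein genes outside the symbol rule, 6 rose, with a median of 2.10: Rps27rt (log2 2.52), Fau (2.33), Gnb2l1 (2.28), which encodes the Rack1 scaffold of the small subunit, and Rpl22l1 (2.10) were among them. Rps27rt is a near copy of Rps27, so reads could be split between them. All 7 elongation factor genes rose, with a median of 1.23, among them Eef1b2 (2.07), Eef1g (1.67), Eef1a1 (1.32) and Eef2 (1.23). Of 30 initiation factor genes, 11 rose and 3 fell, with a median of 0.16. The initiation factor genes with the smallest p were subunits of eIF3, Eif3h (2.19), Eif3i (1.91), Eif3f (1.71) and Eif3k (1.63).

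The lists for ribosome assembly and for control of translation were mixed. Of 15 chaperones and late assembly factors, 8 rose and 2 fell, with a median of 0.51. Eif6, which keeps the subunits apart, rose by 1.05, and Pno1, a small subunit assembly factor, by 0.88. Of 23 translational control and ribosome rescue genes, 2 rose and 16 fell, with a median of -0.61, against 29.3% of all genes that fell. Eif4ebp1, an inhibitor of cap-dependent initiation, was higher in KO by 1.71, while Rps6kb1, which encodes S6 kinase, fell by 1.08, Hbs1l, a ribosome rescue factor, fell by 0.83, and Eif2ak2, the RNA-activated kinase PKR, fell by 1.82. These lists were written with earlier results of the same data known.

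Marker genes of other cells moved with the Ter119pos comparison only in part. Of 10 red cell genes, 1 was higher and 2 were lower in KO, and their summed level ran from 336973 to 440825 CPM in KO and from 305448 to 340618 in WT. Slc4a1, the anion exchanger of the red cell membrane, was among the lower ones, at 5008 and 4263 CPM in KO and 14114 and 11758 in WT. The summed level of the red cell genes includes globin genes and depends on the scaling. As a share of all counts, globin genes took 16.4% and 18.3% in Ter119pos KO and 25.1% and 24.6% in WT, with both KO libraries below both WT libraries. Of 6 megakaryocyte markers 4 were higher and 1 was lower, with sums of 30.5 to 31.3 CPM in KO and 19.0 to 20.0 in WT, and of 7 hepatocyte markers 3 were higher, with sums of 55.4 to 82.7 and 31.3 to 44.3. Of 9 progenitor markers 1 was higher and 3 were lower (sums of 50.3 to 74.8 and 86.2 to 105.5), and of 10 macrophage markers 1 was higher and 3 were lower (41.4 to 54.7 and 40.8 to 73.2). None of 7 granulocyte markers was higher and 4 were lower (15.5 to 52.4 and 46.3 to 118.6), and of 9 mast cell, basophil and eosinophil markers 1 was lower (2.45 to 5.69 and 3.77 to 4.27). None of these lists had a marker at 0 in all Ter119pos libraries of a group. The part of cell composition in the rise of the members was not tested.

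In Ter119neg cells few members changed. Of 80 tested members, 4 were higher in KO and none was lower (edgeR, adjusted p under 0.05), where 9.57% of all genes were higher, and 11 had an unadjusted p under 0.05. DESeq2 called 5, all higher, with its share of all genes not counted. The median was 0.25, against 0.01 over all genes. Scaled to total counts the median was -0.07 and no member was called, where 22.8% of genes were, so the sign of the median depended on the scaling. Relative to the all-gene median it was 0.24 under the main scaling and 0.23 under total counts, values that a change of scale can hardly move apart. The count was 0 without KO replicate B or without WT replicate B, and 2 without KO replicate A or without WT replicate A. Both libraries of KO stood above both of WT in 37 of the 80. The share of all genes with such a separation was not counted, so the 37 is not read as a result about the members.

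Rps27l, a paralog of Rps27 that is a known p53 target, had the largest change among the 4. It stood at 92.0 and 112 CPM in Ter119neg KO and at 62.7 and 54.9 in WT (log2 0.80, SE 0.170, adjusted p = 0.00656). Rps14 stood at 789.8 and 822 in KO and at 492 and 566 in WT (log2 0.61, SE 0.157, adjusted p = 0.0184). Rps4l stood at 19.7 and 18 in KO and at 14.2 and 10.2 in WT (log2 0.62, SE 0.170, adjusted p = 0.0237). It is annotated as a transcribed processed pseudogene and is close in sequence to Rps4x, so its counts are uncertain. In Ter119pos it stood at 17.9 and 15.3 CPM in KO and at 5.53 and 3.83 in WT (log2 1.83). Rpl15, a large subunit protein, stood at 601 and 673 in KO and at 455 and 454 in WT (log2 0.49, SE 0.150, adjusted p = 0.0401). In all 4 genes, picked from these same libraries, the KO libraries stood above the WT libraries. All 10 macrophage markers were lower in Ter119neg KO (summed level 31.4 to 35.3 CPM against 134.5 to 142 in WT), and 6 of 10 red cell genes were higher and 1 lower (1061 to 1683 against 764 to 846). Of 9 progenitor markers 5 were lower (769 to 809 against 1215 to 1255), and of 7 hepatocyte markers 2 were lower (125 to 256 against 273 to 439). Their part in these changes was not tested.

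The change with deletion differed between the fractions. The interaction of genotype and fraction was higher in Ter119pos for 79 of 80 members (19.3% of all genes), with a median of 1.77. The exception was Rpl39l, at under 1 CPM in each fetal library, with an interaction of 1.99 (SE 0.972, adjusted p = 0.119). The largest interactions were those of Rps14 (2.73), Rpl36 (2.68), Rps27 (2.44) and Rplp1 (2.42). Scaled to total counts, 72 were higher (7.28% of genes), with a median of 1.19. With mouse as a block the WT side of the interaction rests on mouse 4 alone, the only one that gave both WT fractions. The median with that block was 1.59, against -0.01 over all genes. Markers of other cells moved in the same interaction: 9 of 10 macrophage markers were higher (median 2.46), 5 of 7 hepatocyte markers (median 1.97), and 3 of 6 megakaryocyte markers, with 1 lower (median 1.37), while 5 of 10 red cell genes were lower and 1 higher (median -1.01). Their part in the members' interaction was not tested.

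In WT cells 36 of 80 members (45.0%) were lower in Ter119pos than in Ter119neg and none was higher, a share near the 40.4% of all genes that were lower. The median was -0.37 against -0.19 over all genes. Relative to the all-gene median it was -0.18, and -0.07 with the GC trend removed and -0.06 with mouse as a block. Rps4l (-1.39), Rps14 (-1.27), Rpl36 (-1.2) and Rpl13a (-1.02) were the lowest. Rpl13a, a large subunit protein also known for silencing of inflammatory mRNAs, stood at 357 and 393 CPM in Ter119pos and at 736 and 779.7 in Ter119neg WT. Scaled to total counts, to protein-coding counts, or to protein-coding counts without globin, all 80 were lower (65.0%, 72.5% and 62.6% of genes), with medians of -1.54, -1.89 and -1.32, and the all-gene median moved with them, to -1.35, -1.71 and -1.14. With mouse as a block 31 were lower and 7 higher, with a median of -0.21, although only mouse 4 gave both WT fractions. Without Ter119pos WT replicate A the median was -0.28, against -0.20 over all genes. Without the filter on low values 59 were lower. The shares of all genes called with the mouse block and without the filter were not counted. Those counts are therefore not read as results about the members.

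In KO cells the order of the fractions depended on the scaling. Under the main scaling 78 of 80 members were higher in Ter119pos KO than in Ter119neg KO (30.3% of all genes), with a median of 1.37, but scaled to total counts 34 were lower (78.8% of genes) and none higher, with a median of -0.37, and scaled to protein-coding counts 33 were lower (78.4% of genes), with a median of -0.31. Scaled to protein-coding counts without globin, 39 were higher (13.2% of genes) and 1 lower, with a median of 0.40. Relative to the all-gene median the members stood at 1.49 under the main scaling and at 1.49 under total counts, since the all-gene median moved from -0.12 to -1.86. A change of scale moves all genes nearly alike, so this closeness was fixed in advance. The highest under the main scaling were Rpl41 (2.05), Rps24 (2.01), Rplp1 (1.91) and Rpl17 (1.77). Rps24, a Diamond-Blackfan anemia gene, stood at 941 and 1605 CPM in Ter119pos KO and at 242 and 392 in Ter119neg KO. Rpl17, which lines the exit tunnel, stood at 954 and 1380.2 in Ter119pos KO and at 280.2 and 403 in Ter119neg KO. Markers of other cells differed strongly between the fractions in both genotypes: all 10 red cell genes were higher in Ter119pos, and all 9 progenitor and 7 granulocyte markers were lower. Macrophage markers differed by genotype: 8 of 10 were lower in Ter119pos in WT (median -1.09), while 7 were higher and 2 lower in KO (median 1.18). Of 7 hepatocyte markers all were lower in WT and 4 in KO. Their part in the members' values was not tested.

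In LK cells no member passed the test. Of 81 tested members (all but Rpl10l, at 0 in each LK library) none was called, where 1.82% of all genes were called in either direction, and 1 had an unadjusted p under 0.05. The median was -0.19, against -0.09 over all genes. Its sign depended on the setting: it was 0.06 scaled to total counts, 0.14 with the length trend removed, 0.16 with the letter block and the length trend removed, and 0.21 without both letter B libraries. DESeq2 called 1 member. Libraries of the same letter deviated together across genotypes, although the labels state no pairing. With the letter as a block 1 member was called, where 22.7% of genes were, with a median of -0.07. With the letter block and the length trend removed together, 4 were called, where 27.2% of genes were, all higher in KO: Rpl3l (2.84), Rps27l (0.76), Rpl26 (0.40) and Rpl3 (0.37).

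Rpl3l (chr17:24727820-24736143, plus strand, GRCm38), the paralog of Rpl3 known from heart and skeletal muscle, was the member with the smallest p in LK. It stood at 1.14, 0.736 and 0.682 CPM in KO libraries A, B and C, from 37, 11 and 24 counts, and at 0.135, 0.243 and 0.0875 in WT, from 5, 3 and 3 counts. All KO libraries stood above all WT libraries (log2 2.58, SE 0.525, adjusted p = 0.0619). Rpl3l was the only member of 81 with such a separation, which was not counted over all genes. It passed the test under DESeq2 (adjusted p = 0.0154), with the letter block (0.0120), with the length or the GC trend removed (0.0267 and 0.0291), and scaled to protein-coding counts (0.0391). It was not called scaled to total counts, without the low count filter, or in any fit with libraries left out. It made up at most 0.0448% of the counts of Rpl3 and Rpl3l together. Rpl36al, with the next smallest p, stood at 244, 228 and 198 CPM in KO and at 270.1, 343 and 203 in WT (log2 -0.28, SE 0.269, adjusted p = 0.632), with the groups overlapping.

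The letter B libraries stood apart from the other LK libraries in both genotypes. The rRNA-like gene Rn18s-rs5 took 23.4% of counts in KO B and 18% in WT B, and at most 0.179% in the other 4. Short members were high there. Rplp1 stood at 8769.9 CPM in WT B, 5.51 times WT A, Rpl38 was 5.25 times and Rps29 4.94 times as high in WT B as in WT A. Long members were not: Rpl4 stood at 0.595 and Rpl3 at 0.707 of WT A. Over 78 members the rho of the B to A ratio with coding length was -0.71 in WT and -0.65 in KO, and the LK log2 fold change had a rho of 0.65 with coding length. Within letter A 67 of 81 members were higher in KO, with a median log2 ratio of 0.14. Within letter C 76 were higher, with a median of 0.19. Within letter B 79 were lower, with a median of -0.53. These ratios of single libraries were not set beside those of all genes. An offset between the KO and WT library of a letter is therefore not separated from a change of the members. Without WT replicate B the LK median was 0.37. Granulocyte markers ran from 579 to 6304 CPM in LK KO and from 756 to 33724 in LK WT, and 4 of 9 mast cell, basophil and eosinophil markers were lower in KO (146 to 339 against 693 to 2182). Of 9 progenitor markers none was called (9615 to 11945 against 15404 to 42986), of 7 tested macrophage markers 2 were lower, and the hepatocyte genes Alb and Ttr were at 0 in all 6 libraries. Their part in the LK values was not tested.

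**Figure D5:**
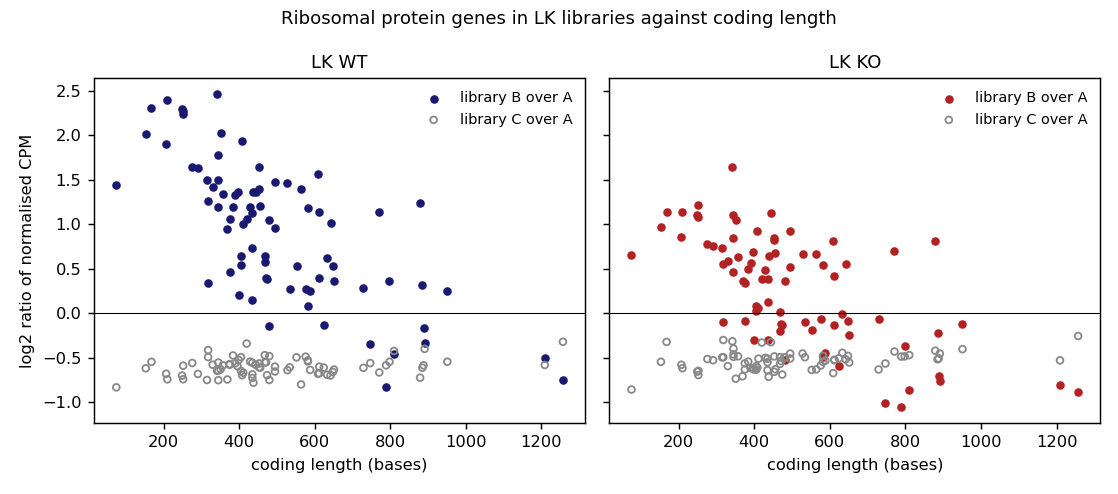
Log2 ratio of normalised CPM of each member in LK library B (filled) and C (open) to library A of the same genotype, against coding length in bases, for WT (left) and KO (right). In B the short members lie highest and the long ones below 0, with higher ratios for the short members in WT than in KO, while the C ratios show little slope with length.

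The paralog pairs gave a measure within each library that does not depend on scaling. Rps27l made up 22.4% to 24.7% of the sum of Rps27l and Rps27 in LK KO and 14.4% to 16.1% in LK WT, with all KO libraries above all WT libraries in each letter (23.4 ± 1.20 against 15.4 ± 0.890, SD, n = 3, exact permutation p = 0.1, the smallest possible). In Ter119neg it was 28.1% and 27.9% in KO and 20.5% and 19.8% in WT (exact permutation p = 0.33, the smallest possible). In Ter119pos it was 23.7% and 23.5% in KO and 21% and 24.8% in WT, with the groups overlapping. There Rps27l rose from 29.6 and 41.7 to 202 and 247 CPM and Rps27 from 112 and 126 to 651 and 807, by similar amounts (log2 2.65 and 2.61). In LK the Rps27l values were 198, 460.3 and 122 CPM in KO and 111, 536 and 66.3 in WT, with the B libraries highest in both groups.

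Among the other pairs, Rpl36al made up 25.4% and 22.7% of the sum with Rpl36a in Ter119pos KO and 32.3% and 34.9% in WT, with both KO libraries below both WT libraries (means of 24.1% and 33.6%). In Ter119neg it was 34.8% and 33.6% in KO and 31.3% and 33.7% in WT, and in LK 22.1% to 33.8% in KO and 21.5% to 35.3% in WT, with the groups overlapping. In Ter119pos Rpl36a rose by 2.04 and Rpl36al by 1.33 on the log2 scale. Rpl36al stood at 129 and 164 CPM in Ter119pos KO and at 50.7 and 65.7 in WT, and Rpl36a at 377 and 560.2 and at 106 and 122. Rpl39l, known from testis, had 10 counts in each Ter119pos KO library and 1 and 3 in the WT libraries. Its call in Ter119pos (log2 2.66, SE 0.795, adjusted p = 0.0129) rests on those counts. Rpl10l, also known from testis, had 1 count in a single Ter119neg KO library and 0 in all others, while Rpl10 stood at 1286 and 1557 CPM in Ter119pos KO and at 328 and 403 in WT (log2 1.96). Ribosomal protein genes have many processed pseudogenes, and 258 rows of the tables carry such names. Those rows took 0.0132% to 0.172% of counts, and adding them to the members changed no share by more than the spread between libraries.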

How the data were processed

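Library preparation was stranded and from total RNA, and rRNA reduction is stated for fetal liver, per the labels' protocols. Alignment used STAR 2.5.3 and quantification RSEM, on GRCm38, per the submitters' processing notes. The deposited tables hold RSEM expected counts by gene. Expected counts were rounded here. R 4.3.3 with edgeR 4.0.16 (TMM, filterByExpr, quasi-likelihood test) was fitted over all genes, the 6 LK and the 8 fetal libraries separately, with Benjamini-Hochberg adjustment per comparison and a threshold of 0.05. DESeq2 1.42.0 was an alternative. CPM values are TMM-normalised, with scaling factors of 0.408 to 1.97 in the fetal libraries. The SE of a log2 fold change is its size over the root of F. GENCODE M21 gave lengths and gene types for 45143 genes. The fits were tested on simulated data. Alternatives scaled to total or protein-coding counts were added after seeing the data.

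The members, gene lists and tests were chosen with earlier results of these data known. Values in each library are given for paralog pairs, stalk proteins and other members fixed by role, for the 4 called members with the largest change per comparison and direction (the 2 with the smallest p where none was called), and for the highest and lowest by level per coding length. Rpl7, Rpl21 and the members not called under total counts were named after their values were seen. In LK, libraries of the same letter deviated together (r = 0.604, 0.719 and 0.730 for A, B and C). The letter was therefore used as a block, although the labels do not state what it stands for. In the fetal liver the mouse numbers in the labels pair fractions, while letters do not pair genotypes (r = 0.0047 and -0.029). Libraries of the same mouse also deviated together little (r = 0.155 for mouse 1 and -0.068 for mouse 4), so the pairing by mouse rests on the labels. Of the members this rule names, 1 is not reported here.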

Additional observations from a re-analysis of the deposited data

Results flagged for a closer look

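The effect of the deletion differed between the 2 fetal liver fractions by a test of the interaction of genotype and fraction. It was larger in Ter119pos for 79 of 80 members (edgeR, adjusted p under 0.05), where it was larger for 19.3% of all tested genes, with a median of 1.77 on the log2 scale. Among the members named in the report, the interaction was 2.73 for Rps14, 2.68 for Rpl36, 2.44 for Rps27 and 2.42 for Rplp1. In each of these 4 genes both Ter119pos KO libraries stood above both Ter119pos WT libraries. The same held for all 80 tested members, so it is not particular to the 4, which were picked from these same libraries.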

How the results depend on the processing

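The rise in Ter119pos KO kept its direction in all 17 settings tried, with 75 of the 79 members tested in each of them called in each. Its median was 1.56 with the length trend removed, 1.10 scaled to total counts, and 1.79 to 2.19 when 1 library was left out. The interaction median was 1.44 with the length trend removed, 1.59 with the replicate block (mouse), 1.19 scaled to total counts, and 1.58 to 2.08 with 1 library left out. With the replicate block (letter), the Ter119pos median was 1.998 and the Ter119neg count 4. With the replicate block (mouse), 78 members were called between fractions in KO, where both mice gave both fractions. The WT side of the interaction and the fraction comparison in WT rest on mouse 4 alone in that fit. In LK, 1 member was called with DESeq2, with the length or the GC trend removed, with the replicate block (letter), and scaled to protein-coding counts with or without globin genes, and 4 with the block and length trend together. Rpl36al in LK turned to 0.0074 with the length trend removed and to 0.0067 with the block added. With 1 library left out the LK median ran from -0.46 to 0.37 and the LK difference in share from -1.08 to 1.01 percentage points, and the difference in share was -0.40 without both letter C libraries and 1.48 without both letter B libraries. The LK median was 0.14 with the length trend removed, 0.16 with the block added, and 0.21 without both letter B libraries. The cause of these reversals was not tested. In Ter119neg, scaling to total counts gave 0 called and a median of -0.074, and leaving out 1 library gave 0 to 2 called and medians of 0.014 to 0.34. The Ter119neg difference in share was 1.76 of protein-coding counts, 1.79 without globin, and -0.83 to 0.29 with 1 library left out. Between fractions in WT, 59 were called without the low count filter (median -0.52), 80 under each scaling by counts (-1.54, -1.89 and -1.32), and 20 to 43 with 1 library left out (-0.52 to -0.28). The median there was -0.10 with the GC trend removed and -0.21 with the replicate block (mouse). Between fractions in KO, 34 and 33 were called lower scaled to total and to protein-coding counts (medians -0.37 and -0.31), 40 were called without globin (0.40), the median was 1.04 with the length trend removed, and 1.18 to 1.64 with 1 library left out. Few counts limited what could be read for Rpl3l, Rpl10l and Rpl39l. For settings given without a share of all genes called, that share was not counted. The numbers of members called there are not read as results about the members.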
